A study of Mus musculus with 6 samples.

Results

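The collagen and laminin chain genes of the follicle wall were taken as the protein-coding genes of the deposited table whose names were *Col*, a number, *a* and a number, or *Lam*, *a*, *b* or *c* and a number. This gave 55 genes, 44 collagen and 11 laminin genes, of 54532 in the table. They were described in 3 sets: 19 basement membrane chains (the laminins and collagens IV, XV and XVIII), 15 stromal chains (collagens I, III, V, VI and the fibril-associated XII, XIV and XVI), and 21 other chains. RNA-seq was measured in granulosa cells (GCs) of ICR mice aged 3 weeks, all given 5 IU of PMSG, a gonadotropin from the serum of pregnant mares that starts the growth of follicles. At 22 h after PMSG the mice of the CTX group were injected with 120 mg/kg cyclophosphamide (CTX), an alkylating chemotherapy drug, and the PBS group with phosphate-buffered saline. GCs were collected 6 h later in 3 samples per group, each a pool of GCs from 3 mice, so the spread given here is between pools.

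A follicle is enclosed by a basement membrane, the sheet of matrix on which its outer GCs rest, with the theca and stroma outside. Laminins are cross-shaped trimers of 1 alpha, 1 beta and 1 gamma chain, type IV collagen trimers form the second network of the sheet, and collagens XV and XVIII are basement membrane proteoglycans. Collagens I, III and V make the fibrils of theca and stroma, and collagen VI makes fine beaded filaments between cells and fibrils. GCs are known to make type IV collagen and laminin chains, while fibrillar collagen is best known from theca and stromal fibroblasts.

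Each sample held 16005869 to 18455011 reads on genes, rebuilt from the FPKM values (reads of a gene divided by its length and by the depth of the sample). A gene was tested if its mean FPKM over the 6 samples was at least 0.5, which left 14463 genes and 32 of the 55 chains. The 10 listed GC markers, mostly *Inha*, summed to 12014 to 13246 FPKM in PBS and 10678 to 11445 FPKM in CTX. The sums did not overlap (two-sided exact permutation p = 0.1, 0.2 adjusted over 6 marker sums). Of the 10, 7 were lower and 1, *Amh*, higher in all CTX samples than in all PBS samples. Among all tested genes 14.1% were lower and 15.0% higher in this way. The part of the GC markers in the chain values was not tested. CTX replicate 2 stood apart from the other samples: on the first principal component of all tested genes (46.8% of the variance) it lay at 74.7, and the others lay between -26.6 and 13.2. In this sample *Amh*, the anti-Mullerian hormone of small growing follicles, stood at 179 FPKM against 48.4 to 85.5 FPKM in the others. *Cyp19a1*, the aromatase of PMSG-driven GCs, stood there at 6.61 FPKM against 32.5 to 62.4 FPKM. Fitted changes of chains that rest on this sample are followed by the change without it.

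The start regions of 3 chains are shown for how their values moved. The first pair moved together from sample to sample, and the third moved the other way in CTX replicates 2 and 3. In CTX replicate 1 the 3 chains stood at 107.2%, 108.2% and 110.9% of the PBS mean. *Col4a1* (ENSMUSG00000031502) lies on the minus strand of chromosome 8 from 11198423 to 11312826 in GRCm38 (mm10), and *Col4a2* (ENSMUSG00000031503) on the plus strand from 11312805 to 11449287. The genes are transcribed away from each other, and their first 22 bases overlap. *Col9a2* (ENSMUSG00000028626) lies on the plus strand of chromosome 4 from 121039385 to 121055322. The windows run 5′ to 3′ from 250 bases before to 50 bases after the RefSeq start (GRCm38.p6), at chr8:11312777-11313076 (minus), chr8:11312555-11312854 (plus) and chr4:121039316-121039615 (plus). The RefSeq start of *Col9a2* lies inside the gene span of the deposited table. Capitals mark the CCAAT box (CCAAT), the GC box (GGGCGG) and the TATA box (TATAAA) on either strand.
Col4a1: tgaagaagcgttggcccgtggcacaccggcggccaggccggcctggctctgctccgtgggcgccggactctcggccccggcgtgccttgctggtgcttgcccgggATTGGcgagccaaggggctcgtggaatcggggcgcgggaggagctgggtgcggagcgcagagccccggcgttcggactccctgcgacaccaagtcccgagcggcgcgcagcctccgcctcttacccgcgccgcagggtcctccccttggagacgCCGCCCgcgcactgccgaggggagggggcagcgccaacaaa
Col4a2: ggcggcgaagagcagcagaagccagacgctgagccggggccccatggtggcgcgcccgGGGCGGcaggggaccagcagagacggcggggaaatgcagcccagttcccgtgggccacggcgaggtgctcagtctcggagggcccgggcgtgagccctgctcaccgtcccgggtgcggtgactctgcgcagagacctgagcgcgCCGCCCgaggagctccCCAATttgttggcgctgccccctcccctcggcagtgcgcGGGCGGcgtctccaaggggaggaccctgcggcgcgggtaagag
Col9a2: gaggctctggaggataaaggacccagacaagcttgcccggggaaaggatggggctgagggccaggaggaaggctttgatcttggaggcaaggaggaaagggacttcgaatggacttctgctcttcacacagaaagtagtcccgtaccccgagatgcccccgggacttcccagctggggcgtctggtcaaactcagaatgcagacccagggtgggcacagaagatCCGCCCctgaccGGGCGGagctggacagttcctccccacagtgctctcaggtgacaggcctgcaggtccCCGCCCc

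The *Col4a1* and *Col4a2* windows share 78 bases, and a GC box in each is the same site read from opposite strands. The *Col4a1* window held 1 CCAAT box and 1 GC box, the *Col4a2* window 1 CCAAT box and 3 GC boxes, and the *Col9a2* window 3 GC boxes. None of the 3 windows held the TATA box. RefSeq windows were found for 40 of the 55 chains, 44 windows in all. A GC box occurred in 26 of these (59.1%) and in 35.7% of the 32851 windows of all genes, a CCAAT box in 14 (31.8%) and 37.4%, and a TATA box in 5 (11.4%) and 13.6%. These matches are descriptions of the letters and were not tested against the expression values.

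None of the 32 tested chains passed the test between CTX and PBS. At an adjusted p below 0.05 (limma on log2(FPKM + 0.1), Benjamini-Hochberg over all tested genes) the count was 0 of 32 chains against 254 of 14463 genes (1.76%). With a change of more than 2-fold also required, it was 0 of 32 against 139 genes (0.961%). At an unadjusted p below 0.05 there were 4 of 32 chains, *Col24a1*, *Col5a2*, *Col9a2* and *Col27a1*, against 2840 of 14463 genes. The share of all genes was the larger. The test with precision weights on the rebuilt reads (voom) also gave 0 chains, with 4 at an unadjusted p below 0.05 against 2922 of 14463 genes. Fitted changes were above 0 for 15 chains and below 0 for 17.

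The 3 CTX values lay above the 3 PBS values for 5 chains, *Col9a2*, *Col27a1*, *Col11a1*, *Col5a2* and *Col6a4*, while 15.0% of all tested genes did so. They lay below for 3 chains, *Lamb2*, *Lama4* and *Col24a1*, while 14.1% of all tested genes did so. For the other 24 chains the groups overlapped. The share of chains above was near that of all genes, and the share below was under it.

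**Figure D1:**
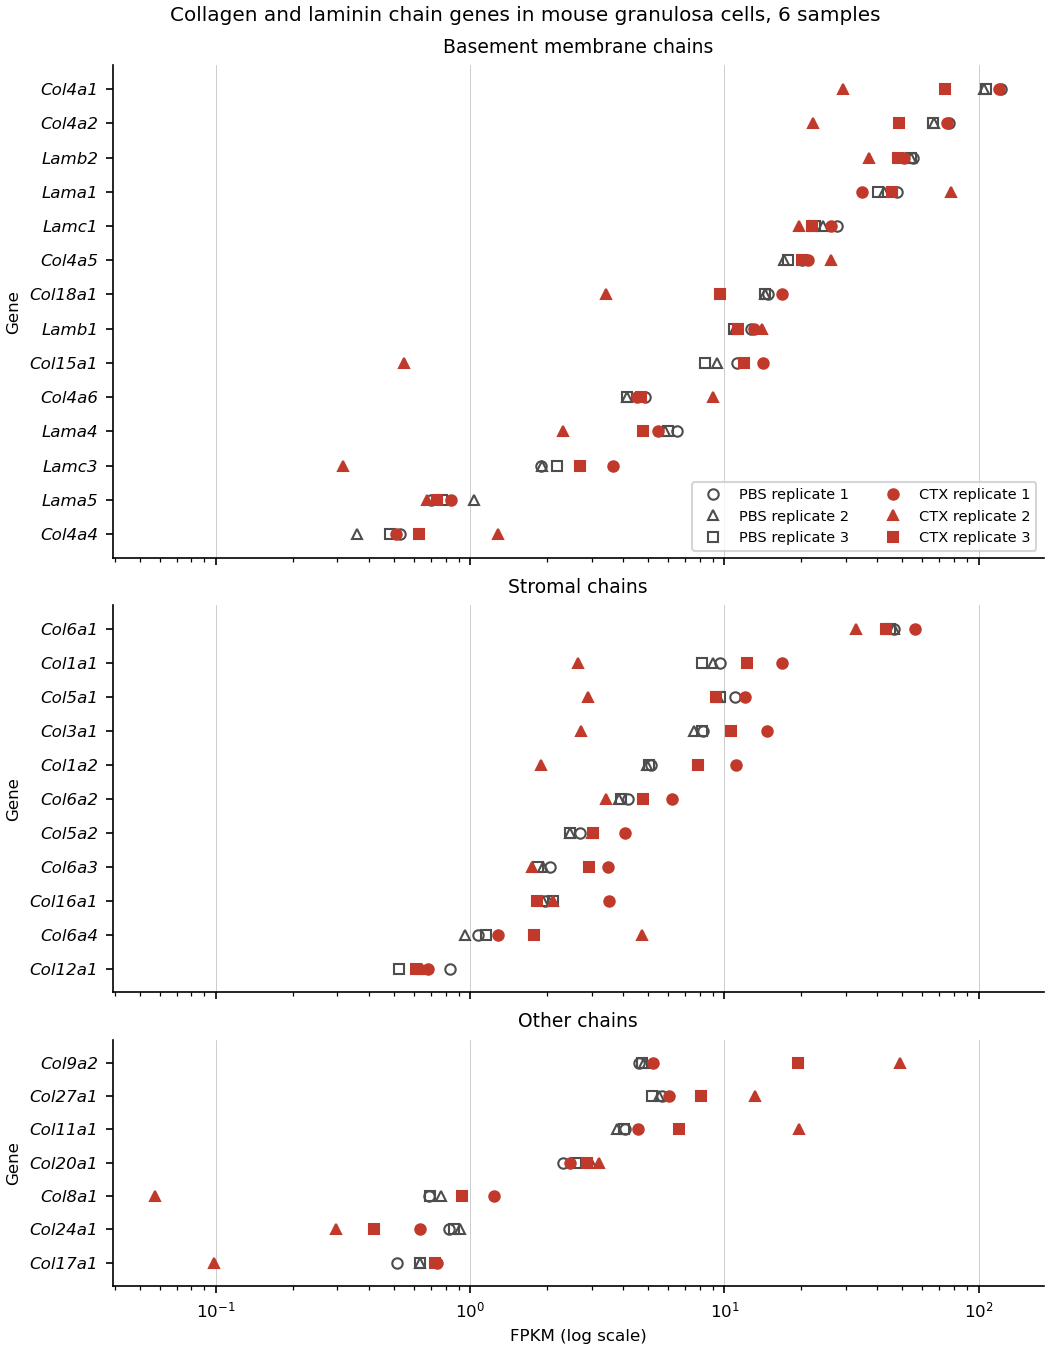
FPKM (log axis) of the 32 tested chains in each of the 6 samples, in panels for basement membrane, stromal and other chains; open grey symbols are PBS and filled red symbols CTX, with 1 symbol shape per replicate number. The PBS samples lie close together, and CTX replicate 2 (triangle) lies away from the rest for most chains, to the left for *Col4a1* and *Col15a1* and to the right for *Col9a2* and *Col11a1*.

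The chains spread far more among CTX samples than among PBS samples. The median SD of log2(FPKM + 0.1) over the 32 chains was 0.11 in PBS and 0.61 in CTX, and over all tested genes it was 0.10 and 0.18. CTX replicate 2 was the sample farthest from the median of the 6 samples for 25 of 32 chains (78.1%), and for 42.9% of all tested genes. In that sample 6 chains were more than 2-fold above the PBS mean, against 4.80% of all tested genes, and 13 were more than 2-fold below it, against 8.14%. CTX replicate 1 had 1 chain past 2-fold, *Col1a2*, against 5.02% of all genes, and CTX replicate 3 had 1, *Col9a2*, against 5.24%. The 2-fold counts were made on FPKM + 0.1. Without this addition *Col24a1* was also past 2-fold in CTX replicate 3, at 48.2% of the PBS mean. These counts per sample were added after the values were seen. CTX replicate 3 lay between CTX replicates 1 and 2 for 28 of the 32 chains (87.5%), and for 51.4% of all tested genes.

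**Figure D2:**
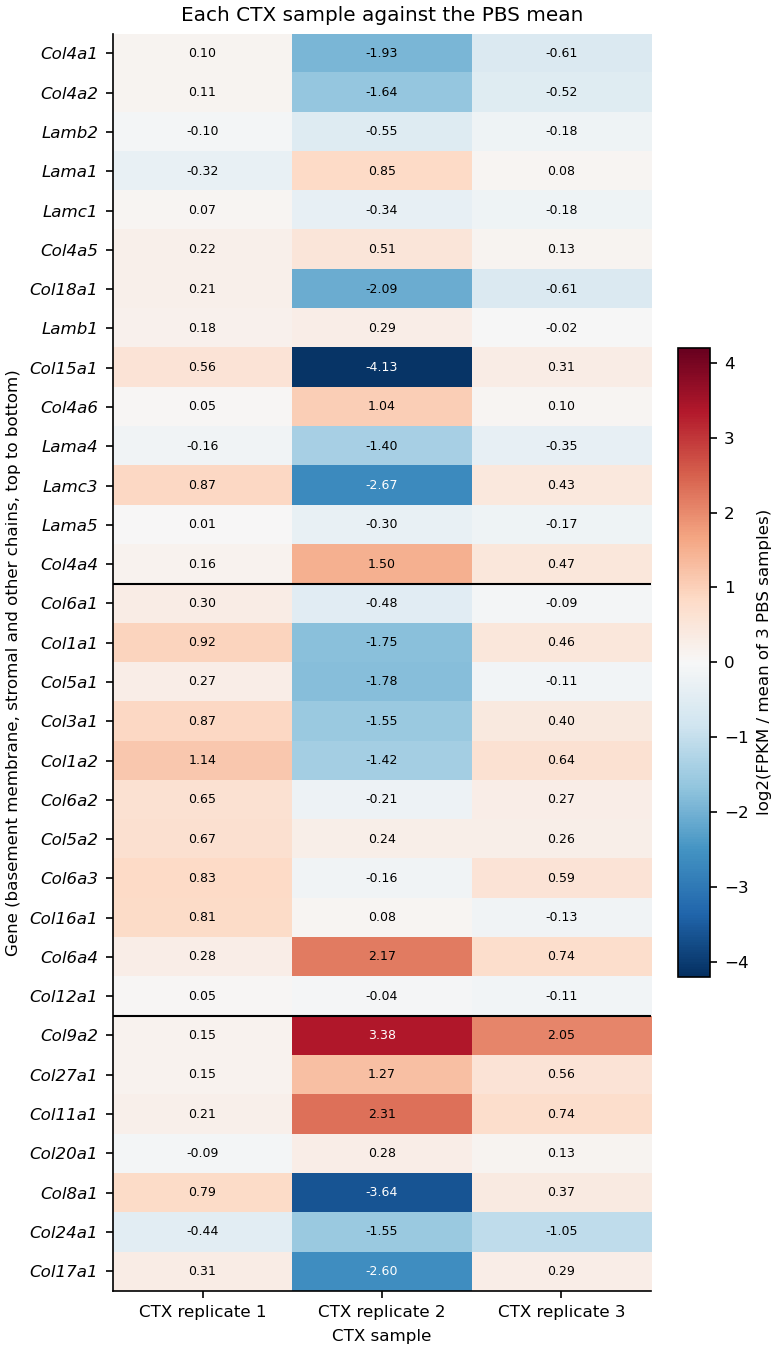
Log2 ratio of FPKM in each CTX sample (columns) to the mean of the 3 PBS samples, without pseudocount, for the 32 tested chains (rows), with lines between basement membrane, stromal and other chains; red is above and blue below the PBS mean. The middle column, CTX replicate 2, holds most of the strong colours, with 13 chains more than 2-fold below and 6 more than 2-fold above the PBS mean.

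Type IV collagen held the highest level of all the chains. *Col4a1*, the chain that makes up the larger part of the common type IV trimer, had 123, 105.5 and 106.9 FPKM in PBS replicates 1, 2 and 3 and 119.9, 29.3 and 73.5 FPKM in CTX replicates 1, 2 and 3. *Col4a2*, its partner in that trimer, had 76.4, 66.7 and 66.0 FPKM in PBS and 75.4, 22.4 and 48.5 FPKM in CTX. CTX replicate 1 lay within the PBS range for both genes, CTX replicate 3 lay below it, and CTX replicate 2 was lowest, at 26.2% and 32.1% of the PBS mean. The fitted log2 change was -0.81 ± 0.48 (SE, n = 3 per group) for *Col4a1* (limma adjusted p = 0.38) and -0.68 ± 0.41 for *Col4a2* (limma adjusted p = 0.39), with a 95% interval for *Col4a1* from -1.96 to 0.35. Without CTX replicate 2 the changes were -0.25 ± 0.20 (limma adjusted p = 0.55) and -0.20 ± 0.19 (limma adjusted p = 0.60), and without CTX replicate 1 they were -1.27 ± 0.37 and -1.07 ± 0.32 (limma adjusted p = 0.11 for each). The ratio of *Col4a1* to *Col4a2* was 1.58 to 1.62 in PBS and 1.59, 1.31 and 1.51 in CTX replicates 1, 2 and 3 (two-sided exact permutation p = 0.2, 0.35 adjusted over 7 ratios).

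The other type IV chains did not share the low values of CTX replicate 2. *Col4a5*, which pairs with *Col4a6* in some basement membranes, had 20.2, 17.2 and 17.8 FPKM in PBS and 21.4, 26.2 and 20.1 FPKM in CTX. Only PBS replicate 1 reached the CTX range, and the change of 0.29 ± 0.12 (SE) did not pass (limma adjusted p = 0.26), nor did that of 0.17 ± 0.089 without CTX replicate 2 (limma adjusted p = 0.34). *Col4a6*, which starts 1308 bases from *Col4a5* on the opposite strand, ranged from 4.13 to 4.89 FPKM in PBS and stood at 4.53, 9.01 and 4.68 FPKM in CTX replicates 1, 2 and 3. *Col4a4*, a chain of the kidney-type trimer, ranged from 0.360 to 0.529 FPKM in PBS and stood at 0.510, 1.29 and 0.631 FPKM in CTX. CTX replicate 2 was thus the highest sample for these 3 chains and the lowest for *Col4a1* and *Col4a2*. The 6 type IV chains together took 41.3% to 43.4% of the summed chain FPKM in PBS and 40.8%, 22.6% and 33.2% in CTX replicates 1, 2 and 3. In these shares the groups did not overlap, which in a test of 3 against 3 gives the smallest possible p (two-sided exact permutation p = 0.1, 0.267 adjusted over 8 shares). The summed FPKM of the type IV chains did overlap, at 225.4, 194.3 and 195.6 in PBS and 221.9, 88.75 and 147.8 in CTX (two-sided exact permutation p = 0.3, 0.6 adjusted over 8 sums). For CTX replicate 1 the share was thus below PBS, while its type IV sum lay within the PBS range.

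Among laminin alpha chains *Lama1*, the alpha chain of laminin-111, had the highest level. It had 47.6, 42.5 and 40.1 FPKM in PBS and 34.7, 78.2 and 45.8 FPKM in CTX replicates 1, 2 and 3. One CTX sample lay below, one above and one within the PBS range, and the fitted change was 0.20 ± 0.28 (SE, limma adjusted p = 0.70), or -0.12 ± 0.14 without CTX replicate 2 (limma adjusted p = 0.67). *Lama4*, an alpha chain best known from blood vessel walls, had 6.50, 5.82 and 5.98 FPKM in PBS and 5.46, 2.32 and 4.79 FPKM in CTX. All 3 CTX samples were below all PBS samples, with a change of -0.62 ± 0.31 (limma adjusted p = 0.31), or -0.25 ± 0.096 without CTX replicate 2 (limma adjusted p = 0.23). *Lama5*, an alpha chain of many epithelial basement membranes, was low, at 0.700 to 1.03 FPKM in PBS and 0.678 to 0.843 FPKM in CTX. The ratio of *Lama1* to *Lama4* was 6.71 to 7.33 in PBS and 6.35, 33.8 and 9.55 in CTX (two-sided exact permutation p = 0.4, 0.56 adjusted over 7 ratios).

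*Lamb2* was the main beta chain, at 81.3% to 83.2% of the beta chain FPKM in PBS and 79.6%, 72.5% and 80.9% in CTX replicates 1, 2 and 3. It had 55.2, 54.0 and 54.0 FPKM in PBS and 50.9, 37.1 and 48.2 FPKM in CTX, so all 3 CTX samples lay below the PBS samples. The change was small and did not pass, at -0.27 ± 0.12 (SE, limma adjusted p = 0.28), or -0.14 ± 0.060 without CTX replicate 2 (limma adjusted p = 0.28). *Lamb1*, the beta chain of laminin-111, had 12.7, 11.0 and 10.9 FPKM in PBS and 13.0, 14.1 and 11.4 FPKM in CTX. The ratio of *Lamb2* to *Lamb1* was 4.35 to 4.96 in PBS and 3.91, 2.64 and 4.24 in CTX, lower in all 3 CTX samples (two-sided exact permutation p = 0.1, 0.233 adjusted over 7 ratios). *Lamc1*, the gamma chain of most laminins, had 27.6, 24.5 and 22.7 FPKM in PBS and 26.2, 19.7 and 22.1 FPKM in CTX. It took 90.6% to 93.0% of the gamma chain FPKM in PBS and 87.5%, 98.1% and 88.7% in CTX. *Lamc3*, a minor gamma chain, ranged from 1.90 to 2.20 FPKM in PBS and stood at 3.66, 0.315 and 2.70 FPKM in CTX, above PBS in 2 samples and below in 1. Its fitted change was -0.36 ± 0.80 (limma adjusted p = 0.82). Without CTX replicate 2 it was 0.63 ± 0.16 (limma adjusted p = 0.11), so that the direction of *Lamc3* turned. Other annotated genes cover 6.27% of the *Lamc3* exon bases on the opposite strand, and whether the counting used strand is not given in the sources used here.

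The basement membrane proteoglycan collagens were both lowest in CTX replicate 2. *Col18a1*, the source of the fragment endostatin, had 14.8, 14.5 and 14.5 FPKM in PBS and 16.8, 3.42 and 9.58 FPKM in CTX. *Col15a1*, its relative in vessel and muscle basement membranes, had 11.2, 9.32 and 8.40 FPKM in PBS and 14.2, 0.550 and 11.9 FPKM in CTX. CTX replicates 1 and 3 lay above every PBS sample for *Col15a1*, while CTX replicate 2 was 17.5-fold below the PBS mean. The fitted changes were -0.82 ± 0.53 for *Col18a1* (limma adjusted p = 0.42) and -1.01 ± 1.15 for *Col15a1* (limma adjusted p = 0.64). Without CTX replicate 2 they were -0.20 ± 0.22 (limma adjusted p = 0.66) and 0.44 ± 0.14 (limma adjusted p = 0.17), so that the direction of *Col15a1* turned.

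Over the set, the 19 basement membrane chains summed to 404.6, 359.6 and 355.7 FPKM in PBS and 388.5, 245.8 and 305.7 FPKM in CTX (two-sided exact permutation p = 0.3, 0.6 adjusted over 8 sums). Of the 14 tested chains, 5 had a fitted change above 0 and 9 below, with a median log2 change of -0.21 beside -0.0081 for all tested genes. This median was -0.052 without CTX replicate 2 and -0.31 without CTX replicate 1, and the log2 ratio of the mean sums was -0.25 with all samples, -0.11 without CTX replicate 2 and -0.44 without CTX replicate 1. The share of the set in the summed chain FPKM was 76.4% to 77.9% in PBS and 71.5%, 62.6% and 68.6% in CTX, lower in all 3 CTX samples (two-sided exact permutation p = 0.1, 0.267 adjusted over 8 shares). A share also moves with the other sets: the sum of the basement membrane chains in CTX replicate 1 lay within the PBS range, and the stromal chains summed there to 131.5 FPKM against 88.3 to 93.6 FPKM in PBS. The 8 endothelial markers, whose cells also make *Lama4* and *Col15a1*, were low in all samples. They summed to 7.79 to 8.33 FPKM in PBS and 7.23, 3.30 and 6.95 FPKM in CTX, with no marker at 0 in all samples. *Cdh5* was the largest part of this sum in every sample, with a mean of 4.10 FPKM in PBS and 2.45 FPKM in CTX. Of the 8 markers 6 had a mean under 1 FPKM, and the group means of the markers other than *Cdh5* moved in both directions. In these bulk samples fewer cells of a type and less RNA per cell cannot be told apart, and the part of endothelial cells in these values was not tested.

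**Figure D3:**
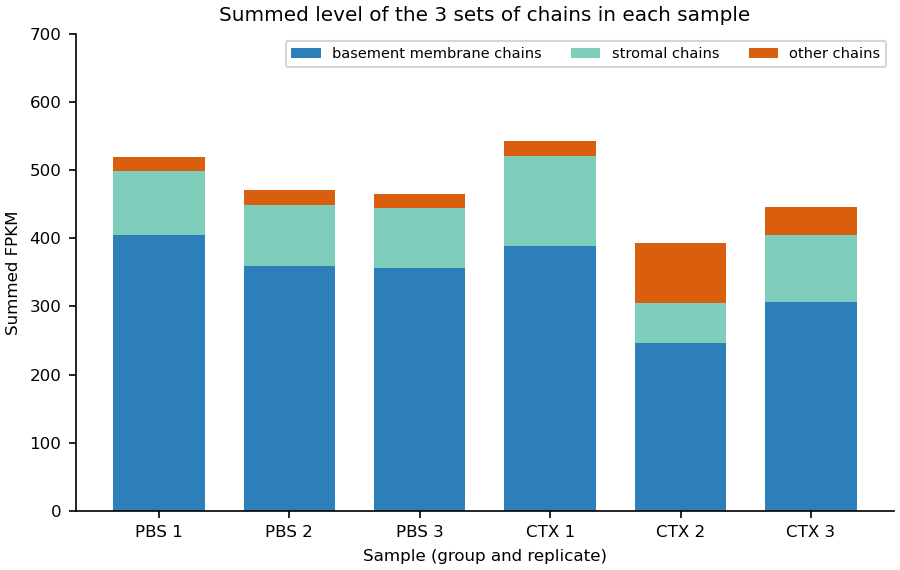
Stacked bars of summed FPKM in each of the 6 samples for the 19 basement membrane chains (blue), the 15 stromal chains (green) and the 21 other chains (orange). The basement membrane chains are the largest part of every bar, and the other chains are at 20.6 to 21.6 FPKM in PBS and 87.6 FPKM in CTX replicate 2.

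The stromal chains differed between CTX samples in both directions. *Col6a1*, a chain of the beaded filaments, had the highest level of the set, with 46.3, 46.5 and 44.7 FPKM in PBS and 56.4, 32.9 and 43.1 FPKM in CTX. *Col1a1*, the main chain of the type I fibril, had 9.58, 8.99 and 8.18 FPKM in PBS and 16.9, 2.65 and 12.3 FPKM in CTX. *Col1a2*, its partner, had 5.15, 4.94 and 5.06 FPKM in PBS and 11.1, 1.89 and 7.88 FPKM in CTX. For both type I chains CTX replicates 1 and 3 were above every PBS sample and CTX replicate 2 was below every PBS sample. *Col3a1*, the chain of the type III fibril, took the same order, at 7.60 to 8.22 FPKM in PBS and 14.7, 2.73 and 10.6 FPKM in CTX.

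*Col5a1*, a chain that sets the width of type I fibrils, ranged from 9.46 to 11.0 FPKM in PBS and stood at 12.1, 2.91 and 9.30 FPKM in CTX. *Col5a2*, the other common type V chain, had 2.70, 2.47 and 2.46 FPKM in PBS and 4.05, 3.00 and 3.04 FPKM in CTX. All CTX samples of *Col5a2* were above all PBS samples, with a change of 0.38 ± 0.14 (SE, 95% interval 0.035 to 0.72) that did not pass after adjustment (limma adjusted p = 0.23), and it was 0.45 ± 0.15 without CTX replicate 2 (limma adjusted p = 0.17). *Col6a2* ranged from 3.86 to 4.17 FPKM in PBS and stood at 6.23, 3.43 and 4.80 FPKM in CTX, and *Col6a3* from 1.85 to 2.06 FPKM and at 3.47, 1.75 and 2.93 FPKM. Both code for further chains of the collagen VI filament. *Col6a4*, a chain that can replace *Col6a3* in the filament, went from 1.07, 0.953 and 1.15 FPKM in PBS to 1.29, 4.75 and 1.77 FPKM in CTX, with its highest value in CTX replicate 2 (change 1.01 ± 0.45, limma adjusted p = 0.28, and 0.48 ± 0.21, limma adjusted p = 0.28, without that sample). The fibril-associated *Col16a1* ranged from 1.93 to 2.12 FPKM in PBS and from 1.83 to 3.52 FPKM in CTX, and *Col12a1* from 0.523 to 0.829 FPKM and from 0.612 to 0.685 FPKM.

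The ratio of *Col6a1* to *Col6a2* was 11.1, 12.04 and 11.4 in PBS and 9.05, 9.58 and 8.98 in CTX. CTX replicate 2 lay beside the other CTX samples in this ratio. The ratio of *Col1a1* to *Col1a2* was 1.62 to 1.86 in PBS and 1.40 to 1.56 in CTX. Both ratios were lower in all 3 CTX samples, and 3 against 3 samples cannot give a p below 0.10 (two-sided exact permutation p = 0.1 for each, 0.233 adjusted over 7 ratios).

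Without CTX replicate 2 the stromal set shifted upwards. With the CTX samples reduced to replicates 1 and 3, 2 of 32 chains passed the adjusted p, against 3.65% of all tested genes, both stromal: *Col1a2* at 0.88 ± 0.15 (limma adjusted p = 0.035) and *Col6a3* at 0.68 ± 0.13 (limma adjusted p = 0.047). *Col1a1* stood at 0.69 ± 0.15 (limma adjusted p = 0.069) and *Col3a1* at 0.63 ± 0.14 (limma adjusted p = 0.077) in that fit, neither of which passed. The median change of the 11 tested stromal chains was 0.45 without that sample and 0.13 with it, and 10 of the 11 were above 0 without it against 6 with it. The 15 stromal chains summed to 93.6, 89.8 and 88.3 FPKM in PBS and 131.5, 59.1 and 98.7 FPKM in CTX (two-sided exact permutation p = 0.7, 0.8 adjusted over 8 sums).

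Some stromal markers lay, like the type I chains, above all PBS samples in CTX replicates 1 and 3 and below in CTX replicate 2. Others did not. *Dcn* and *Lum*, small proteoglycans of fibrous stroma, stood at 1.22 to 1.51 and 1.96 to 2.47 FPKM in PBS. In CTX replicates 1, 2 and 3 *Dcn* was at 2.59, 1.08 and 2.25 FPKM and *Lum* at 4.60, 1.91 and 4.72 FPKM. Both were only a little below the PBS range in CTX replicate 2. *Cyp17a1*, the androgen-making enzyme of theca cells, was at 30.8 to 34.4 FPKM in PBS and 29.6, 1.25 and 12.4 FPKM in CTX. The 12 theca and stroma markers summed to 50.7 to 56.0 FPKM in PBS and 62.8, 33.2 and 47.2 FPKM in CTX, and none was at 0 in all samples. The largest part of this sum was *Cyp17a1* in PBS and CTX replicate 1, and *Acta2* in CTX replicates 2 and 3. The low sum of CTX replicate 2 thus goes with *Cyp17a1* and is not shared by all the markers. The CTX values lay above all PBS values for 2 of the 12, *Acta2* and *Nr2f2*, and below for 1, *Cyp17a1*. Of all tested genes 15.0% lay above and 14.1% below. *Acta2*, the smooth muscle actin of contractile stroma, was highest in CTX replicate 2, at 20.5 FPKM against 7.66 to 8.60 FPKM in PBS, and so was *Nr2f2*, a nuclear receptor of stromal cells, at 4.72 FPKM against 2.98 to 3.90 FPKM. Their part in the chain values was not tested.

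**Figure D4:**
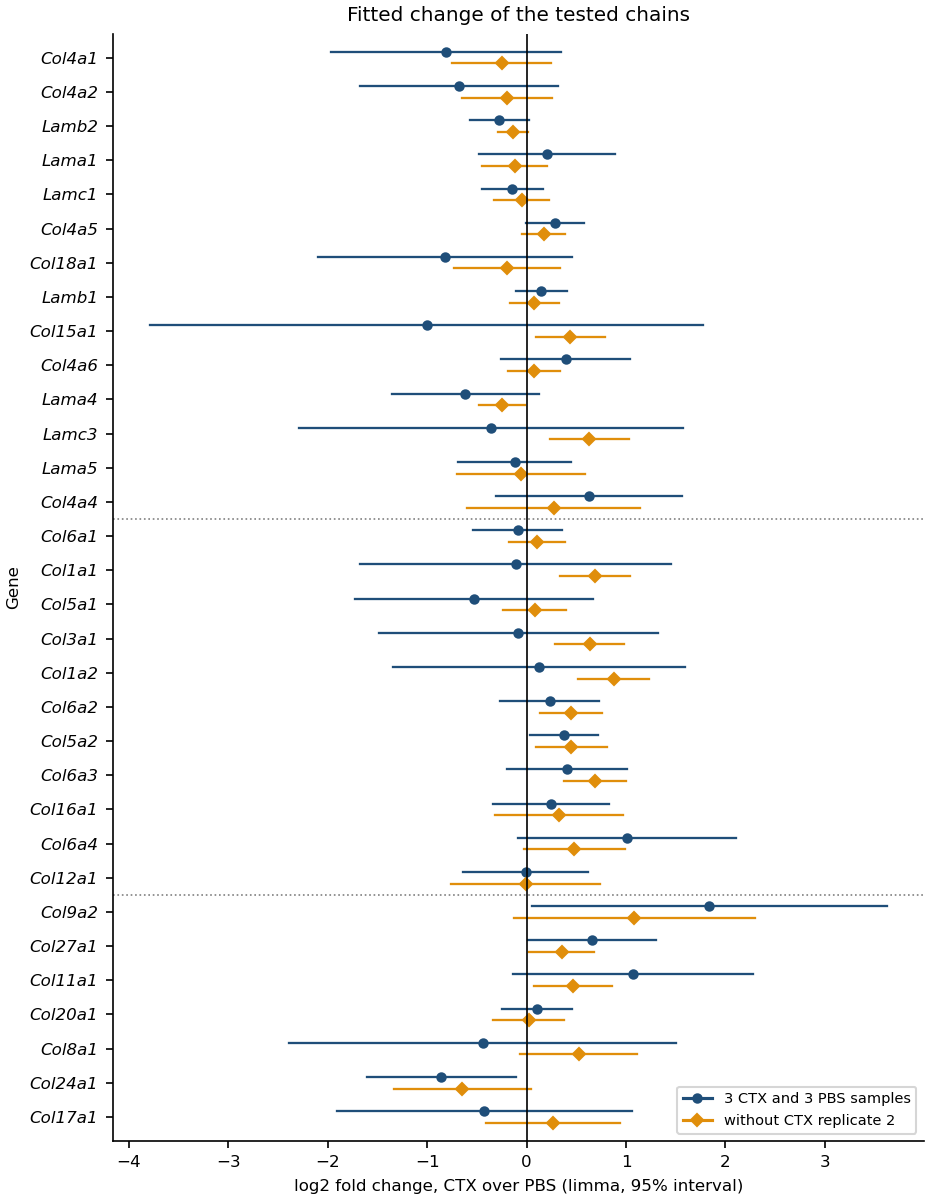
Log2 fold change of CTX over PBS with its 95% interval (limma) for the 32 tested chains, with all samples (blue circles) and without CTX replicate 2 (orange diamonds); dotted lines divide basement membrane, stromal and other chains. Without CTX replicate 2 the intervals of *Col4a1*, *Col15a1* and *Col1a1* are narrower, and the stromal *Col1a1*, *Col1a2* and *Col3a1* lie between 0.63 and 0.88 instead of near 0.

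Among the other chains are 9 cartilage-type fibril or associated collagens, of which 4 were tested, and 3 of these 4 stood highest in CTX replicate 2. *Col9a2*, a chain of the collagen IX that coats cartilage fibrils, had 4.62, 4.81 and 4.75 FPKM in PBS and 5.24, 49.1 and 19.5 FPKM in CTX. *Col11a1*, a chain of the collagen XI inside such fibrils, had 4.07, 3.78 and 4.03 FPKM in PBS and 4.57, 19.7 and 6.61 FPKM in CTX. *Col27a1*, a fibril chain of cartilage, had 5.66, 5.55 and 5.19 FPKM in PBS and 6.06, 13.2 and 8.09 FPKM in CTX. All CTX samples of these 3 genes were above all PBS samples, in the order replicate 2, 3 and 1. *Col24a1*, a further fibril chain, went the other way, with 0.825, 0.909 and 0.867 FPKM in PBS and 0.637, 0.296 and 0.418 FPKM in CTX.

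The fitted change of *Col9a2* was the largest of the chains, at 1.84 ± 0.74 (SE, 95% interval 0.054 to 3.62), and did not pass (limma adjusted p = 0.25). That of *Col11a1* was 1.07 ± 0.50 (limma adjusted p = 0.29), that of *Col27a1* 0.65 ± 0.27 (limma adjusted p = 0.25), and that of *Col24a1* -0.86 ± 0.31 (limma adjusted p = 0.21). Without CTX replicate 2 *Col9a2* stood at 1.09 ± 0.50 (limma adjusted p = 0.29), *Col11a1* at 0.46 ± 0.16 (limma adjusted p = 0.19), *Col27a1* at 0.35 ± 0.13 (limma adjusted p = 0.22) and *Col24a1* at -0.65 ± 0.28 (limma adjusted p = 0.28). Without CTX replicate 1, the sample nearest to PBS, *Col9a2* was the 1 chain that passed, with a change of 2.69 ± 0.37 (limma adjusted p = 0.033), against 3.05% of all tested genes. Its ratio to the PBS mean was 1.11, 10.4 and 4.13 in CTX replicates 1, 2 and 3. *Amh* had the same order, at 54.2, 179 and 85.5 FPKM, and *Cyp19a1* the opposite one, at 47.6, 6.61 and 32.5 FPKM. Of the other listed GC markers, *Inha* (8933, 9180 and 8556 FPKM) and *Gja1* (503, 508 and 426 FPKM) took neither order. The rest took the order of *Cyp19a1*. CTX replicate 3 lay between CTX replicates 1 and 2, in either direction, for 51.4% of all tested genes. The part of these markers in the *Col9a2* values was not tested. The 21 other chains summed to 20.6 to 21.6 FPKM in PBS and 23.3, 87.6 and 41.0 FPKM in CTX (two-sided exact permutation p = 0.1, 0.4 adjusted over 8 sums).

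The remaining tested chains of the set were low. *Col20a1*, a fibril-associated chain, ranged from 2.31 to 2.98 FPKM in PBS and from 2.47 to 3.20 FPKM in CTX. *Col8a1*, a short chain of vessel and corneal networks, stood at 0.688 to 0.766 FPKM in PBS and at 1.24, 0.0576 and 0.926 FPKM in CTX. *Col17a1*, a transmembrane collagen of epithelial anchoring junctions, stood at 0.516 to 0.634 FPKM in PBS and at 0.737, 0.0978 and 0.726 FPKM in CTX. For both, CTX replicates 1 and 3 were above every PBS sample and CTX replicate 2 below. The fitted change of *Col8a1* was -0.44 ± 0.81 (limma adjusted p = 0.78) and that of *Col17a1* -0.42 ± 0.61 (limma adjusted p = 0.71). Without CTX replicate 2 they were 0.53 ± 0.24 (limma adjusted p = 0.30) and 0.27 ± 0.28 (limma adjusted p = 0.64), so that both directions turned.

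The 23 chains that were not tested had mean levels from 0.00557 to 0.454 FPKM. None was at 0 reads in all 6 samples, and 7 had at most 10 reads in every sample, so differences among these were not detectable at this depth. Those with the most reads were *Lama3*, *Col4a3*, *Lama2*, *Col25a1*, *Col11a2* and *Col23a1*. *Col4a3*, which starts 71 bases from *Col4a4* on the opposite strand, had 71, 66 and 51 reads in PBS and 36, 116 and 65 reads in CTX, again with its highest value in CTX replicate 2. *Lama2*, the alpha chain of muscle laminin, had 36, 48 and 31 reads in PBS and 87, 59 and 87 reads in CTX. *Col23a1*, a transmembrane collagen, had 50, 30 and 33 reads in PBS and 55, 55 and 54 reads in CTX, while *Col25a1*, another of that kind, had 66, 80 and 76 reads and 54, 30 and 40 reads. *Col11a2*, a further collagen XI chain, had 58, 61 and 51 reads in PBS and 58, 49 and 31 reads in CTX, unlike *Col11a1*, whose highest value was in CTX replicate 2. Of the other cartilage-type chains with few reads, named after their values were seen, *Col9a3* was lowest in CTX replicate 2, at 2 reads, and *Col10a1* highest in CTX replicate 1, at 25 reads. *Col9a1* had 0, 1 and 0 reads in PBS and 0, 8 and 3 reads in CTX, in the order of *Col9a2*. *Col2a1* had 5, 7 and 3 reads in PBS and 8, 10 and 11 reads in CTX. *Lama3*, the alpha chain of skin laminin, had 107, 89 and 55 reads in PBS and 79, 87 and 90 reads in CTX, within the PBS range. In FPKM the 3 CTX values lay above the 3 PBS values for 3 of the 23 chains and below for 2, while 4.17% and 4.70% of the 14394 genes below the filter with any value above 0 did so.

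A weighted fit, in which limma's arrayWeights estimates how far each sample is to be trusted, gave another count. It called 14 of 32 chains, 8 higher and 6 lower in CTX, and 39.8% of all tested genes. Its weights did not converge and gave CTX replicate 3 a weight of 16.6 and the other samples 0.163 to 1.60, so that the CTX values rested mostly on 1 sample.

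Genes that act on the chains were listed by role, 60 in all, of which 51 were tested. At an adjusted p below 0.05, 1 of the 51 was higher and 2 were lower in CTX, against 202 higher (1.40%) and 52 lower (0.360%) of all tested genes. Among the 14 collagen modifying enzymes and chaperones, 2 fell. *P4ha2*, a catalytic subunit of the prolyl 4-hydroxylase that lets collagen helices hold together, had 4.58, 4.50 and 4.32 FPKM in PBS and 1.804, 1.64 and 1.31 FPKM in CTX. *P4ha1*, the other main catalytic subunit, had 59.0, 56.5 and 61.9 FPKM in PBS and 44.5, 36.6 and 41.7 FPKM in CTX. The changes were -1.45 ± 0.14 for *P4ha2* (SE, limma adjusted p = 0.0059) and -0.53 ± 0.09 for *P4ha1* (limma adjusted p = 0.046), and only that of *P4ha2* was over 2-fold. In neither gene did CTX replicate 2 stand apart, and without it both calls remained. The most abundant gene of the role, *Serpinh1*, the collagen chaperone HSP47, had 438, 433 and 470 FPKM in PBS and 416, 300.3 and 361 FPKM in CTX (-0.33 ± 0.13, limma adjusted p = 0.24).

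Among the 9 tested matrix proteases 1 rose. *Mmp2*, the gelatinase that cuts type IV collagen, had 2.51, 2.28 and 2.27 FPKM in PBS and 4.53, 4.90 and 3.73 FPKM in CTX, a change of 0.86 ± 0.13 (SE, limma adjusted p = 0.032). *Mmp11*, the most abundant of the proteases, had 63.1, 56.3 and 61.7 FPKM in PBS and 76.8, 96.9 and 72.2 FPKM in CTX (0.43 ± 0.12, limma adjusted p = 0.15). The calls of *P4ha1*, *P4ha2* and *Mmp2* were lost when any 1 of the 3 PBS samples was left out, and their limma adjusted p reached at most 0.21, 0.056 and 0.17 over all alternatives. The call of *P4ha1* was also lost without CTX replicate 3 and that of *Mmp2* without CTX replicate 1, a block on the replicate number lost all 3, no filter lost *P4ha1* and *Mmp2*, and eBayes without trend lost *P4ha1*.

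No gene of the remaining roles passed: 5 of 5 basement membrane partners, 7 of 11 processing and crosslinking genes, 11 of 13 receptors and 5 of 5 protease inhibitors were tested. *Sparc*, a type IV collagen binding protein, had 278, 259 and 279 FPKM in PBS and 369, 174 and 277 FPKM in CTX (limma adjusted p = 0.92). *Pcolce*, which speeds the trimming of procollagen, had 52.6 to 56.0 FPKM in PBS and 71.8, 17.9 and 52.3 FPKM in CTX. Both were lowest in CTX replicate 2 and highest in CTX replicate 1. *Dag1*, the laminin receptor dystroglycan, had 166 to 183 FPKM in PBS and 172 to 204 FPKM in CTX (limma adjusted p = 0.40). *Timp1*, an inhibitor of matrix proteases, had 111 to 128 FPKM in PBS and 91.0, 24.2 and 60.4 FPKM in CTX, below PBS in 3 of 3 samples (-1.23 ± 0.45, limma adjusted p = 0.22).

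**Figure D5:**
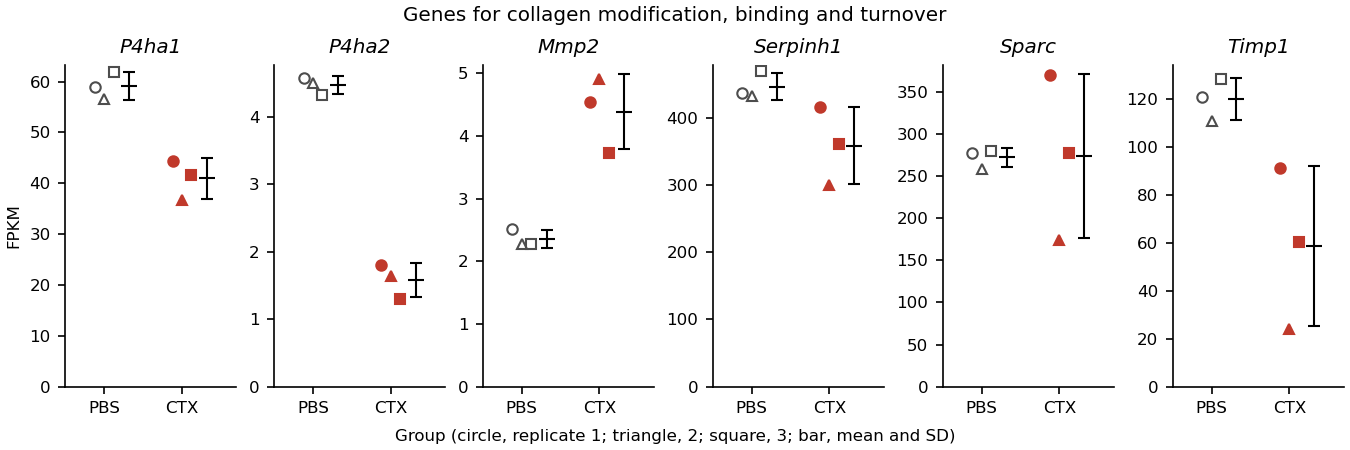
FPKM of 6 genes that modify, bind or turn over collagen in each sample of the PBS and CTX groups; symbols are the samples, 1 shape per replicate number, and the bars are the mean and SD of 3 samples. *P4ha1* and *P4ha2* were lower and *Mmp2* higher in all CTX samples, while *Serpinh1*, *Sparc* and *Timp1* have their lowest value in CTX replicate 2.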

How the data were processed

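RNA-seq of mouse GCs was analysed in 6 samples, grouped as PBS or CTX by their labels. The authors deposited FPKM values per gene. The submitters' processing notes list CASAVA 1.8, fastp, HISAT2 2.0.5, featureCounts 1.5.0-p3 and DESeq2 1.20.0 with the build mm10, without roles. Not used were the authors' mean signal per group, the authors' log2 fold change and the authors' p-value and adjusted p-value in the same table. Gene length multiplied by FPKM gave whole reads (within 0.01 read) for 100% of values above 0. The reads came to 16005869 to 17790353 per PBS sample and 17727770 to 18455011 per CTX sample, which limits the precision of low genes. Such reads are not independent molecules. Positions equal those of GENCODE M21 for 55 of 55 chains.

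log2(FPKM + 0.1) was compared with limma 3.58.1 (lmFit, eBayes with trend) in R 4.3.3 over the 14463 genes whose FPKM averaged at least 0.5, with Benjamini-Hochberg adjustment over all of them. Fold changes on this scale understate changes of low genes. Single values per sample were compared with two-sided exact permutation tests, which cannot go below p = 0.10. The fit was tested on simulated data that gave both groups the spread of the PBS samples. The larger spread of the CTX samples was not simulated, so this test does not cover it. Other steps used Python 3.11.15 (matplotlib 3.10.9, SciPy 1.17.1, NumPy 2.4.6, pandas 2.3.3). The members and lists were chosen with earlier results of these data known. Tested chains were named with values, the 12 highest in every sample. Of the genes below, up to 6 with the most reads were named, and of the partner genes those that passed and the most abundant of each role. Of cell markers those that moved with a result were named. Alternative settings were a pseudocount of 1 or 0.01, no filter, a mean FPKM of at least 5, quantile normalization (75th percentile scaling for sums), a replicate block, arrayWeights, eBayes without trend, voom on the rebuilt reads and each sample left out.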

Additional observations from a re-analysis of the deposited data

How the results depend on the processing

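The count of 0 chains past the adjusted p held under 8 of the 9 alternatives that kept all samples: pseudocounts of 1 and 0.01, no filter, a mean FPKM of at least 5, quantile normalization, eBayes without trend, the replicate block and voom. It was 14 with arrayWeights, where 1 chain was also past 2-fold. Leaving out 1 sample gave 0 to 2 chains at the adjusted p and 0 to 1 past 2-fold. Chains with all CTX above all PBS numbered 8 without a filter (more genes counted), 3 at a mean FPKM of at least 5 (fewer genes counted), and 5 to 14 with 1 sample left out, with 14 lacking CTX replicate 2, where 19.2% of all tested genes did so, and 9 lacking PBS replicate 1, where 19.1% did. Those below numbered 5 without a filter and 3 to 9 with 1 sample left out, with 9 lacking CTX replicate 1, where 25.1% of all tested genes did so. The median log2 change of the stromal chains ranged from -0.046 to 0.45 with 1 sample left out, lowest lacking CTX replicate 1 and highest lacking CTX replicate 2, and 4 of its 11 chains changed sign lacking the latter. In all, 9 of 32 chains changed sign without CTX replicate 2. Of 92 alternative values of the main results 80 kept within the spread or within 1.5 times the count. This count is not a measure of stability, because eBayes without trend and the replicate block cannot move the medians. The spread also includes CTX replicate 2. The log2 ratio of the stromal sums was 0.091 with all samples, -0.20 without CTX replicate 1 and 0.35 without CTX replicate 2. These values counted as within its spread of 0.41. The labels give no shared source for a replicate number. Deviations of same-numbered samples had a mean correlation of 0.0285, and CTX replicates 1 and 2 correlated best with their own number (0.0556 and 0.0242) and CTX replicate 3 with PBS replicate 2 (0.0593). A block on them left 0 chains called and reduced the calls over all genes from 254 to 53. The PBS samples left out in turn reduced these calls to 70 to 78. The causes of these differences were not tested. With 3 samples a group and the spread of the CTX samples, the interval of *Col4a1* reached from -1.96 to 0.35.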

Other observations

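A few further genes, chosen after their values were seen, moved beside the chains. *Lox*, the crosslinking enzyme lysyl oxidase, had 7.62, 9.53 and 6.78 FPKM in PBS and 4.39, 2.66 and 2.34 FPKM in CTX, below PBS in 3 of 3 samples (-1.36 ± 0.25, limma adjusted p = 0.061), and voom called it. *Adamts2*, which trims the ends of fibrillar procollagen, had 20.4 to 21.8 FPKM in PBS and 20.2, 93.5 and 39.9 FPKM in CTX, with its highest values in the samples where *Col9a2* was highest. *Acta2*, the smooth muscle actin of contractile stroma, rose from 7.94, 7.66 and 8.60 FPKM to 14.7, 20.5 and 16.7 FPKM (1.08 ± 0.13, limma adjusted p = 0.017), and its call was lost without any 1 of the PBS samples or CTX replicate 3 and under the replicate block.

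The 10 listed leukocyte markers summed to 23.9 to 27.4 FPKM in PBS and 40.9, 75.3 and 28.8 FPKM in CTX, mostly *Lyz2*. Of the 10, 4 lay higher in all CTX samples than in all PBS samples, against 15.0% of all tested genes, and none passed the test. The summed level was higher in 3 of 3 CTX samples (two-sided exact permutation p = 0.1, 0.2 adjusted over 6 marker sums). Oocyte markers summed to 36.3 to 77.6 FPKM in PBS and 50.5 to 89.9 FPKM in CTX, and surface epithelium markers to 7.38 to 8.38 and 3.78 to 10.1 FPKM. Their part in the chain values was not tested.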
